A study of Oryza sativa with 6 samples.

Results

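The YSL and IRT1 transporters of rice were followed in leaves of the transgenic line KMD, set against those of its parent cultivar Xiushui 11 (XS11). Probe sets were taken where the platform annotation gave them to 1 gene whose symbol or synonym is YSL2, YSL5, YSL6, YSL9, YSL12, YSL13, YSL14, YSL15, YSL16 or IRT1. This gave 9 genes of the 17905 that the annotation ties to a probe set, 8 YSL genes and IRT1, with 10 of the array's 57381 probe sets between them. YSL12 had 2 probe sets, each of the other measured genes had 1, and no probe set is named for YSL2 in the annotation used here. The choice did not use the measured values, although it was made with earlier results of these data known.

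KMD is 1 transgenic line in the Xiushui 11 background. It is known, though not from the labels, as an insect-resistant rice with a cry1Ab transgene. XS11 is the parent, labelled wildtype. Each line was measured with 3 arrays of leaf RNA, which the labels call biological replicates of seedlings aged 30 days, without saying how many plants each held. Both lines were germinated for 2 days at 28 °C. They were then grown under the same regime, with 16 h of light at 30 °C and 8 h of dark at 26 °C. The pots were fed with diluted Murashige and Skoog salts that supply iron and the other metals. The study asked which genes are expressed differently in KMD, in search of side effects of its transformation.

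Grasses take up iron as a complex with mugineic acids, chelators that the root makes from methionine by way of nicotianamine and releases into the soil. YSL (yellow stripe-like) proteins carry metals across the plasma membrane in such complexes, either with a mugineic acid or with nicotianamine, and several of them load metals into and out of the phloem. Rice in addition takes up free ferrous iron through IRT1, a transporter of the ZIP family that is best known from roots under iron shortage.

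The leaf label was checked against marker genes. The CAB2R probe sets, for a light-harvesting chlorophyll protein, read 10430 and 9726 in KMD, against 10600 and 9652 in XS11 (means of 3 arrays). Root markers were not all dim. LSI2 read 11.8 in KMD and 14.7 in XS11, but LSI1 read 194 in KMD and 285 in XS11 and AMT1-2 read 44.3 in KMD and 74.7 in XS11, both above the signal of 27.7 at which the filter described below lay. The 8 leaf marker probe sets summed to 51409 to 51949 per KMD array, against 52361 to 53111 per XS11 array. In the limma test described below, 6 of them were tested, of which 1 fell in KMD and 5 did not pass. The fall was that of LFNR1, at 4287 in KMD and 5210 in XS11 (log2 fold change -0.28, limma adjusted p = 5.37e-05). The 2 below the filter, for RBCS and RBCS1, averaged between 15.5 and 27.3 in either line. Seed, pollen and anther markers rested on 3 probe sets, of which 1 for the glutelin gene GLUA2 was bright, at 716 ± 20.3 in KMD and 530 ± 9.35 in XS11 (SD, n = 3 each), and the other 2 were dim in both lines. In a leaf extract, fewer cells of a type and less RNA per cell cannot be told apart.

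Of the 10 probe sets, 9 passed a filter that kept the upper 60% of mean log2 signal, and these were tested with limma on log2(signal + 11.17). In that test 6 fell in KMD, 0 rose and 3 did not pass at an adjusted p of 0.05, where the adjustment (Benjamini-Hochberg) ran over all 34404 tested probe sets. At an unadjusted p under 0.05 limma gave 7 lower and 0 higher. The share of all tested probe sets lower at that threshold was not counted. It is no less than the 21.6% called lower after adjustment, so the 7 cannot be set against it. The 6 genes were YSL13, YSL12, YSL16, IRT1, YSL6 and YSL9. Among all tested probe sets 39.7% were called, 21.6% as lower and 18.1% as higher in KMD, so a call alone was common on these arrays. The median log2 fold change, given throughout as KMD minus XS11, was -0.38 over the 9 tested probe sets and 0.0017 over all tested probe sets. In 8 of the 9, every KMD array read below every XS11 array, which 25.7% of all tested probe sets also showed.

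**Figure D1:**
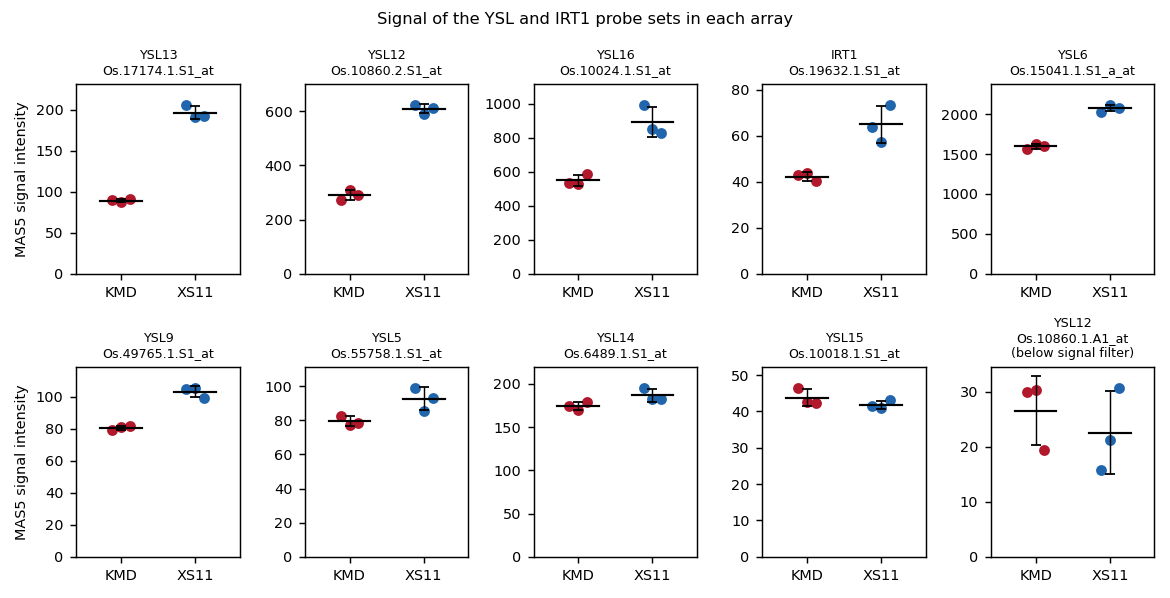
MAS5 signal intensity (linear axis from 0) of each YSL and IRT1 probe set in the 3 KMD and 3 XS11 arrays, with the mean (bar) and SD (whiskers). The KMD points lie below all XS11 points in the panels of YSL13, the brighter YSL12 probe set, YSL16, IRT1, YSL6, YSL9, YSL5 and YSL14, and the lines overlap for YSL15 and for the YSL12 probe set below the signal filter.

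YSL13 and YSL12 had the lowest log2 fold changes of the tested members. YSL13 (LOC4336441), which acts in the distribution of iron to rice leaves, read 89.7, 87.3 and 90.7 in KMD, against 206, 192 and 192 in XS11. The KMD values were tightly grouped and lay far below the lowest XS11 value. The log2 fold change was -1.05 (SE 0.06, 95% interval -1.18 to -0.92, limma adjusted p = 1.3e-08), which is 2.07-fold lower in KMD on this scale. Of all tested probe sets, 1.04% had a log2 fold change as low as this or lower.

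The brighter probe set of YSL12 (LOC4336442) read 273, 311 and 292 in KMD, against 624, 591 and 614 in XS11. Here too the lines were separated by a gap far wider than the spread within either. Its log2 fold change was -1.04 (SE 0.05, 95% interval -1.15 to -0.93, limma adjusted p = 2.75e-09). The intervals of YSL12 and YSL13 overlapped almost wholly. The dimmer YSL12 probe set did not share this pattern. It read 30, 30.4 and 19.4 in KMD and 15.7, 21.2 and 30.7 in XS11, with the lines overlapping. It lay below the filter on signal, and in a fit without the filter its log2 fold change was 0.17 (limma adjusted p = 0.489). The fall of YSL12 therefore rests on 1 of its 2 probe sets.

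YSL16 (LOC4336546) carries copper bound to nicotianamine, and iron, through the phloem of rice. It read 534, 527 and 585 in KMD, against 993, 851 and 828 in XS11, so that its highest KMD array stayed well under its lowest XS11 array. The log2 fold change was -0.68 (SE 0.06, 95% interval -0.82 to -0.55, limma adjusted p = 1.19e-06). This interval lay above those of YSL12 and YSL13 without touching them. The phloem sucrose transporter gene SUT1 also read lower in KMD, at 197 ± 5.94 against 245 ± 4.91 in XS11 (SD, n = 3 each). Over the whole phloem and vascular marker list, 2 of 5 tested probe sets fell and 3 did not pass. Its 6 probe sets summed to 1561 to 1600 per KMD array, against 1861 to 1929 per XS11 array. Most of each sum came from 1 probe set of a gene listed as SUT2 (LOC9266530), at 1045 in KMD and 1296 in XS11. The other probe set of that gene read 38.6 in KMD and 39.1 in XS11. FTIP1 (53.4 in KMD, 51 in XS11) and SHR1 (24.5 in KMD, 20.1 in XS11) had overlapping arrays, as had the other gene listed as SUT2 (219 in KMD, 233 in XS11). The part of these marker values in the YSL16 result was not tested.

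YSL6 and YSL9 fell by less. YSL6 (LOC4335676), a manganese-nicotianamine transporter that protects rice from excess manganese, read 1566, 1622 and 1598 in KMD, against 2033, 2119 and 2080 in XS11. The arrays of each line agreed closely, and the log2 fold change of -0.38 (SE 0.03) had a limma adjusted p of 7.48e-07. Its probe set is of the a_at type, which can take signal from several transcripts of the gene. YSL9 (LOC4336545), which carries iron chelates in rice and is best known from the developing seed, read 79.1, 81.2 and 81.4 in KMD, against 105, 106 and 99.4 in XS11. Its log2 fold change was -0.32 (SE 0.07, limma adjusted p = 0.00156).

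YSL5, YSL14 and YSL15 did not pass the test. YSL5 (LOC4335677) read 82.8, 77.4 and 78.6 in KMD, against 99.1, 85.6 and 93.2 in XS11, and the 95% interval of its log2 fold change ran from -0.35 to -0.03 (limma adjusted p = 0.0546). It crossed the threshold in the upper 40% of signal (adjusted p = 0.0401), without the intensity trend (0.0427) and without XS11 replicate 2 (log2 fold change -0.24, 0.0419). YSL14 (LOC9267947) read 175, 170 and 179 in KMD, against 195, 183 and 182 in XS11, with an interval from -0.21 to 0.03 (limma adjusted p = 0.223). In both genes the KMD arrays lay under the XS11 arrays, but by gaps of about the SD within a line or less.

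YSL15 (LOC9268232) is the root transporter by which rice takes up ferric iron bound to deoxymugineic acid. It read 46.5, 42.6 and 42.3 in KMD, against 41.5, 41 and 43.1 in XS11, and the arrays of the lines were interleaved. The log2 fold change was 0.05 with a 95% interval from -0.12 to 0.22 (limma adjusted p = 0.662). This interval does not reach the values of YSL16, YSL12 or YSL13.

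IRT1 (LOC4333669), the ferrous iron transporter, read 43, 43.5 and 40.1 in KMD, against 63.7, 57.4 and 73.5 in XS11. The XS11 arrays were spread more widely than the KMD arrays, with no overlap between them. The log2 fold change was -0.51 (SE 0.09, 95% interval -0.70 to -0.31, limma adjusted p = 0.000495). The pseudocount pulls a dim gene such as this towards 0. With a pseudocount of 1 the log2 fold change of IRT1 was -0.60, and the mean signal in KMD was 0.651 of that in XS11.

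In the same arrays, 2 genes of the root marker list were lower in KMD. LSI1, a silicon channel of the root, read 180, 214 and 188 in KMD, against 279, 280 and 298 in XS11 (log2 fold change -0.53, limma adjusted p = 1.34e-05). The ammonium transporter gene AMT1-2 read 40.8, 48.1 and 44.1 in KMD, against 79, 72.6 and 72.5 in XS11 (log2 fold change -0.63, limma adjusted p = 2.97e-05). Of the list's 6 probe sets 3 were tested, of which 2 fell and 1, for CASP1, did not pass. That CASP1 probe set averaged 52.4 in KMD and 47.4 in XS11, with every KMD array above every XS11 array. All 6 summed to 320 to 355 per KMD array, against 442 to 481 per XS11 array, and LSI1 made up most of each sum. The part of these root markers in the IRT1 result was not tested.

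**Figure D2:**
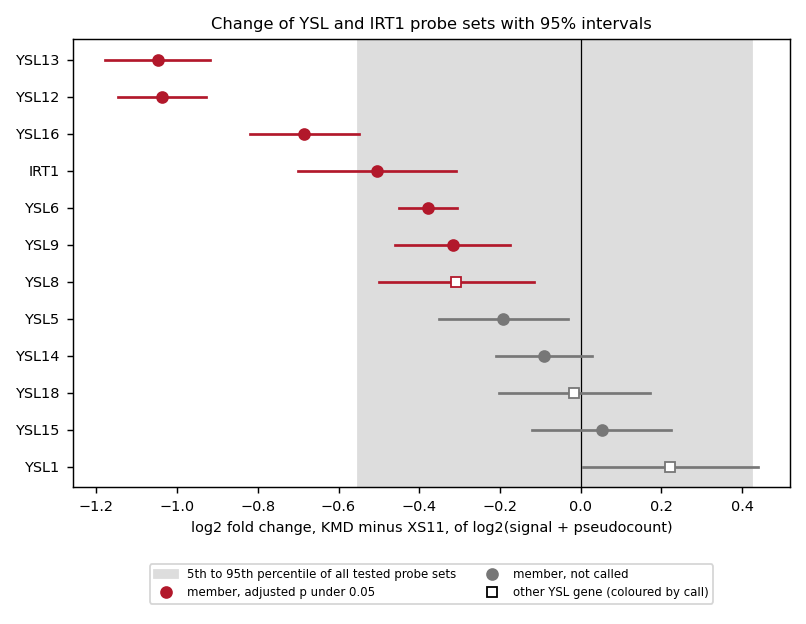
Log2 fold change (KMD minus XS11, of log2(signal + 11.17)) with its 95% interval for each tested YSL and IRT1 probe set (circles) and the 3 tested probe sets of other YSL genes (squares). The grey band is the range from the 5th to the 95th percentile of all tested probe sets, -0.55 to 0.42, and YSL13, YSL12 and YSL16 are the points outside it.

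Several YSL genes are direct neighbours in the RefSeq gene table of assembly ASM3414082v1, used here only for gene order. YSL13 and YSL12 have 0 other protein-coding genes between them, and so have YSL6 and YSL5, YSL9 and YSL16, and YSL2 and YSL15. The members of a pair differed in their log2 fold change to different degrees. YSL13 (-1.05) and YSL12 (-1.04) were nearly equal, YSL6 (-0.38) and YSL5 (-0.19) had overlapping intervals, and YSL16 (-0.68) lay below YSL9 (-0.32) with intervals that did not overlap. YSL11, which follows YSL12 directly, was dim, with means of 7.42 in KMD and 6.35 in XS11, and was not tested.

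Calls among the genes around the members varied from place to place. Within 5 gene positions on either side of YSL13 and YSL12, 6 other probe sets were tested, of which 3 fell, 2 rose and 1 did not pass, with log2 fold changes from -0.94 to 0.20. Around YSL9 and YSL16, 7 of 11 fell and 1 rose, with a lowest value of -0.44. Around YSL14, 5 of 6 fell, and around IRT1 2 of 6 rose and 4 did not pass. Over the surroundings of all measured members, 20 of 40 probe sets fell and 7 rose, with a median of -0.14. Among all tested probe sets 21.6% fell and 18.1% rose. The 40 probe sets belong to 33 genes, so some genes count more than once. The gene LOC4336440 next to YSL13 gave both a fall (-0.53) and a rise (0.18).

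Of the other YSL genes, 7 had a probe set and 3 of these passed the filter on signal. YSL8 read 34.3, 28 and 30.9 in KMD, against 41.9, 43.1 and 38.2 in XS11, and fell with a log2 fold change of -0.31 (limma adjusted p = 0.013). That call was lost without KMD replicate 2 (adjusted p = 0.0641) and without XS11 replicate 2 (0.0554). YSL1 had a log2 fold change of 0.22 (limma adjusted p = 0.1) and YSL18, whose product carries iron with deoxymugineic acid in reproductive organs of rice, one of -0.02 (0.914). YSL4, YSL7, YSL10 and YSL11 averaged between 6.35 and 27.1 in either line and were too dim to test.

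**Figure D3:**
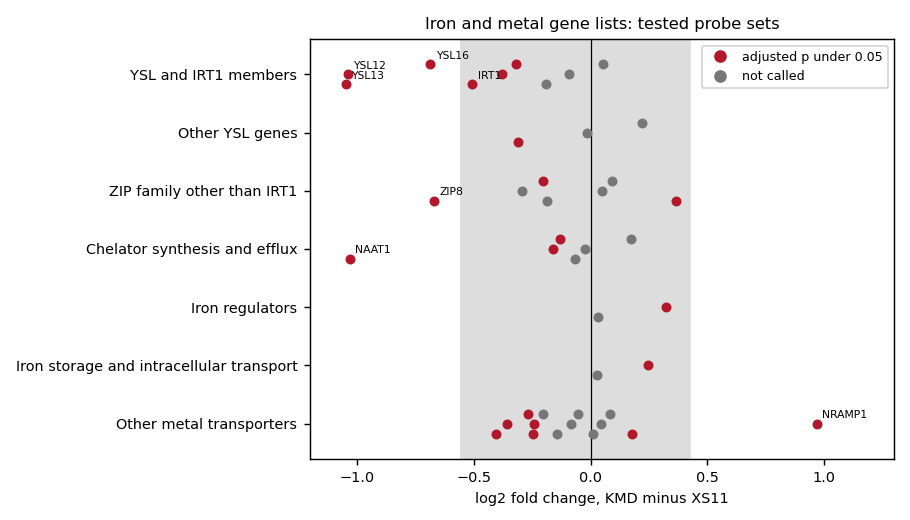
Log2 fold change (KMD minus XS11) of every tested probe set in the YSL and IRT1 group and in 6 lists of other iron and metal genes, coloured by whether the limma adjusted p is under 0.05; names mark log2 fold changes beyond 0.5 in size, and the grey band is the range from the 5th to the 95th percentile of all tested probe sets. NAAT1 (-1.03) lies beside YSL12 and YSL13 on the low side, and NRAMP1 (0.97) stands alone on the high side.

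The wider set of iron and other metal genes moved in both directions. Of 46 probe sets for 41 genes, 34 were tested, of which 11 (32.4%) fell, 5 (14.7%) rose and 18 did not pass, and the median log2 fold change was -0.06. These shares can be read against the 21.6% and 18.1% of all tested probe sets. The lists were matched by symbol and synonym alone, so genes whose names the table does not hold, among them the ferritins and DMAS1, were not analysed here.

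The list of chelator synthesis and efflux had 6 tested probe sets, of which 3 fell and 3 did not pass. NAAT1, the nicotianamine aminotransferase that starts the branch from nicotianamine to the mugineic acids, read 469, 449 and 476 in KMD, against 943, 963 and 977 in XS11. Its arrays were as clearly apart as those of YSL12, and its log2 fold change was -1.03 (SE 0.04, limma adjusted p = 2.42e-10). The nicotianamine synthase gene NAS3 had a log2 fold change of -0.13 (limma adjusted p = 0.0122), a call that several settings lost. NAS2 averaged 101 ± 7.79 in KMD and 88.6 ± 4.51 in XS11 (SD, n = 3 each) and did not pass (0.0817), and NAS1 was too dim to test. NAS genes resemble each other closely, so their probe sets can share signal. The gene listed as TOM1 fell, with a log2 fold change of -0.16 (limma adjusted p = 0.00168), and the 2 probe sets of the gene listed as TOM2 did not pass. Both genes were matched by those synonyms alone and their identity with mugineic acid exporters was not checked, so 3 of the 6 tested probe sets of the list are of uncertain identity.

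Among the iron regulators and storage genes the calls were few and upward. IDEF1, a transcription factor of the iron deficiency response, read 150, 151 and 162 in KMD, against 130, 118 and 117 in XS11 (log2 fold change 0.32, limma adjusted p = 0.00106). A gene listed under both IRO3 and IRO2, names of helix-loop-helix factors of the same response, had a log2 fold change of 0.03 (0.633). VIT2, a vacuolar iron transporter, rose with a log2 fold change of 0.25 (limma adjusted p = 0.000796), and VIT1 had one of 0.03 (0.67). Of these 4 genes, 2 rose and 2 did not pass, and both rises turned to falls when the arrays were centred on the spike-ins.

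In the ZIP family other than IRT1, 7 probe sets were tested, of which 2 fell, 1 rose and 4 did not pass. ZIP8, a zinc transporter also listed as ZIP1, read 126, 137 and 128 in KMD, against 202, 213 and 225 in XS11 (log2 fold change -0.67, limma adjusted p = 1.03e-06). This was close to the change of YSL16. ZIP6 fell by less (-0.20, 0.000487). ZIP7, a zinc transporter also listed as ZIP3, rose, with 79 ± 3.70 in KMD and 58.9 ± 3.04 in XS11 (SD, n = 3 each) and a log2 fold change of 0.36 (limma adjusted p = 0.00149), a direction that turned when the arrays were centred on the spike-ins. IRT2, with 1 protein-coding gene between it and IRT1, averaged 9.23 in KMD and 8.60 in XS11 and was too dim to test.

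Of 14 tested probe sets for other metal transporters, 5 fell, 2 rose and 7 did not pass. NRAMP1, an iron transporter that also carries cadmium, read 192, 206 and 180 in KMD, against 87.5, 88.6 and 103 in XS11. It was the largest rise among the iron and metal genes tested, with a log2 fold change of 0.97 (SE 0.07, limma adjusted p = 2.03e-07), and on the spike-in scale this was 0.35 (adjusted p = 0.000882). MTP1, a zinc transporter of the vacuole, fell by 0.41 on the log2 scale (limma adjusted p = 5.43e-07). The copper transporter genes COPT1 (-0.36, 1.88e-05) and HMA4 (-0.27, 0.00438) also fell. For NRAMP4 a single probe set fell (-0.25, limma adjusted p = 0.00704), and the gene's other tested probe sets did not pass. The other rise, of NRAMP6 (0.18, limma adjusted p = 0.0489), was lost in the fit without the filter (0.0655).

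Every value above is set by the scaling of whole arrays. The array carries 36 probe sets for poly-A spike-ins, bacterial control RNAs that are usually added before labelling, and these were higher in KMD by 0.62 on the log2 scale on average, while centring on them moved the median of all tested probe sets to -0.62. On that scale all 9 tested members were lower in KMD, from -1.67 for YSL13 to -0.57 for YSL15, and 94.8% of all tested probe sets were called lower. The ratio of 3' to 5' signal of actin, which depends on how intact and how fully labelled the RNA is, was 5.64 to 5.91 in KMD, against 4.30 to 4.88 in XS11. The ratio was also higher in KMD for GAPDH, at 3.44 to 3.54 against 2.61 to 2.99 in XS11, and for ubiquitin, at 1.15 to 1.2 against 0.958 to 1.01 in XS11. Of the 4 transcripts only cyclophilin ran the other way, at 0.84 to 0.955 in KMD, against 1.01 to 1.10 in XS11. The part of these differences in the results was not tested, and the sources used here give no batch, so batch and line cannot be told apart.

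**Figure D4:**
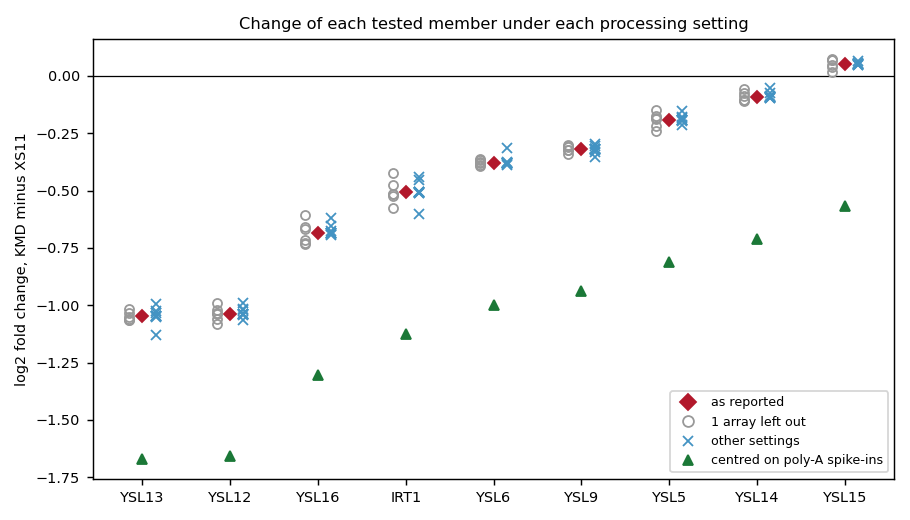
Log2 fold change (KMD minus XS11) of the 9 tested YSL and IRT1 probe sets under each processing setting: as reported (diamonds), with 1 array left out (open circles), under the other settings (crosses) and centred on the poly-A spike-ins (triangles). Centring on the spike-ins moves every gene by the same amount, to -1.67 for YSL13 and -0.57 for YSL15, and away from that scale YSL12 stayed between -1.08 and -0.99.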

How the data were processed

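Each array was hybridised with biotin-labelled cRNA from 6 µg of leaf RNA, per the labels' protocols. The authors deposited a linear signal intensity for every probe set, made with MAS5 per the submitters' processing notes, with version and scaling not given in the sources used here. Array medians ran from 35.5 to 38.6, values from 1 to 16460, and detection calls were not analysed here.

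Gene names came from the platform annotation (22436 probe sets with 1 gene, 95 with several, 34850 with none) and from RefSeq symbols and synonyms. No build is named for the values, so no positions are given. Signals were transformed as log2(signal + 11.17), the pseudocount being the 10th percentile of all values, so that changes of dim probe sets come out too small. KMD was compared with XS11 by limma (two-sided, eBayes with an intensity trend), with control probe sets left out, reporter probe sets kept and no block. The fit was tested on simulated data with independent noise in each probe set and array. That simulation held no array-wide shift, so it does not cover one. Named genes are all members and, of each list, up to 4 called genes with the largest change. Genes outside this rule are given as values, some with their test result. The members, lists and tests were chosen with earlier results of these data known. Precision is limited by having 3 arrays of each line, and p-values measure the spread between these arrays. The work used limma 3.58.1 in R 4.3.3, and pandas 2.3.3, numpy 2.4.6 and matplotlib 3.10.9 in Python 3.11.15.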

Additional observations from a re-analysis of the deposited data

How the results depend on the processing

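The calls were repeated under 16 alternatives, of which 6 left out 1 array each. The 6 falls among the YSL and IRT1 probe sets kept their direction and their call under all 16. Away from the spike-in scale, their log2 fold changes lay between -1.13 and -0.996 for YSL13, between -1.08 and -0.99 for YSL12, between -0.73 and -0.61 for YSL16, between -0.60 and -0.43 for IRT1, between -0.39 and -0.31 for YSL6 and between -0.35 and -0.30 for YSL9. The count of called members was 6 to 7 of 9 with 1 array left out, 7 of 9 without the trend and 9 of 9 on the spike-in scale. Without the trend 12899 of all 34404 tested probe sets were called. In the upper 40% of signal the count of called members was 7 of 8, as YSL15 was not tested there. In that setting 12332 of all 22963 tested probe sets were called. The count over all probe sets was 11834 to 13504 with 1 array left out, and that of the other iron and metal genes was 14 to 18. Centring on the spike-ins called 32924 of all 34404 tested probe sets, 324 higher and 32600 lower. It called 34 of the other iron and metal genes' probe sets, 1 higher and 33 lower. On that scale YSL15 (-0.57), IDEF1 (-0.30), VIT2 (-0.38) and ZIP7 (-0.26) turned to called falls, and YSL5 and YSL14 passed as falls. NAS3 lost its call under quantile normalization (log2 fold change -0.07), median centring, no trend, and without KMD replicate 3 or XS11 replicate 2. Deviations of same-numbered arrays from their line means correlated at -0.24, -0.01 and -0.26, and KMD replicate 3 correlated best with XS11 replicate 1 (0.32). These deviations are taken from means of only 3 arrays, so they cannot show whether the arrays were paired. With the replicate block 6 members, 15 of the other iron and metal genes' probe sets and 12450 probe sets in all were called. Signal limits the dimmest genes: 1 YSL12 probe set, 4 other YSL genes, NAS1 and IRT2 were not tested.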
